A study of Homo sapiens with 8 samples.

Results

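The miR-23, miR-27 and miR-24 microRNAs come from a pair of clusters, on human chromosomes 19 and 9. They were followed in the small RNA counts as the 10 table entries that belong to these families, out of 2026 entries in all: hsa-miR-23a-3p, hsa-miR-23a-5p, hsa-miR-23b-3p, hsa-miR-23b-5p, hsa-miR-27a-3p, hsa-miR-27a-5p, hsa-miR-27b-3p, hsa-miR-27b-5p, hsa-miR-24-3p and hsa-miR-24-2-5p. The prefix for human is left out from here on. The entries were chosen by name and not by their values, and all 10 were present. Cells of HCT116, a human colorectal cancer cell line, had been grown as spheroids in serum-free medium and sorted with an antibody against CD44v6, a variant of the cell surface receptor CD44 that is used as a marker of stem-like colorectal cancer cells. CD44v6-positive samples 1 and 2 were set against CD44v6-negative samples 1 and 2. All 4 samples share the cell line, the spheroid culture, the removal of dead cells with propidium iodide and the sort. The labels list 8 sequencing entries that form 4 combined samples, each counted here as 1 sample. No label says that the samples within a group were separate cultures, so the p-values reflect the spread among these samples alone, and that spread may be technical. The labels give neither a purity of the sorted cells nor a level of CD44v6, and a single cell line stands for colorectal cancer.

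A microRNA is cut from a hairpin precursor that yields 1 RNA from each side, the 5p and the 3p arm. One arm, the guide strand, is usually kept in an Argonaute protein, and the other, the passenger strand, is usually degraded. The guide strand finds messenger RNAs mainly through its seed, bases 2 to 8, and lowers their translation and stability. In the miR-23/27/24 clusters the 3p arms are the usual guide strands. Each cluster is thought to be transcribed as 1 precursor, so that its members share a promoter while later steps can still set their levels apart. Known targets include the nuclear receptor PPARG for miR-27 and the histone H2AX for miR-24. MYC has been reported to repress miR-23a and miR-23b in human cell lines of other tissues. Fewer cells that make a microRNA and less of it per cell cannot be told apart in such samples.

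The guide strands are printed here because both clusters yield nearly the same ones, which sets what can be told apart in the counts. Sequences are from RefSeq (GRCh38.p14), 5′ to 3′, with the seed in capitals.
miR-23a-3p: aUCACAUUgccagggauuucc
miR-23b-3p: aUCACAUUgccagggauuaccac
miR-27a-3p: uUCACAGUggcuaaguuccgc
miR-27b-3p: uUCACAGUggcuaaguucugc
miR-24-3p: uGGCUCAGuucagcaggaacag
The miR-23 guide strands share 1 seed and the miR-27 guide strands another. Counted from the 5′ base, miR-23a-3p and miR-23b-3p differ by U19A, and miR-23b-3p is longer at its 3′ end. The miR-27 pair differs by C19U. A read assigned to 1 member of such a pair rests on 1 base, and the handling of mismatches in the counting is not given in the sources used here. Both hairpins for miR-24 carry an identical 3p arm, so that miR-24-3p has a single entry and its reads cannot be assigned to a chromosome. These hairpins are printed with that arm in capitals.
MIR24-1: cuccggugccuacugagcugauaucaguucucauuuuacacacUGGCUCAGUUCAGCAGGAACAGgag
MIR24-2: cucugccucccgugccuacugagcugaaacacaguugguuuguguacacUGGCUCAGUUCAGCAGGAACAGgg
The 5p arms differ more. Compared position by position from the 5′ base without gaps, miR-27a-5p differs from miR-27b-5p at 8 of 22 bases, which alters the seed. In the same comparison miR-23a-5p differs from miR-23b-5p at 7 of 22 bases, all outside the seed. Without gaps, a shift by 1 base can count at several positions.
miR-27a-5p: aGGGCUUAgcugcuugugagca
miR-27b-5p: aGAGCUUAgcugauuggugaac

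On GRCh38 the chromosome 19 cluster lies on the minus strand and covers 373 bases, with MIR23A at chr19:13836587-13836659, MIR27A at chr19:13836440-13836517 and MIR24-2 at chr19:13836287-13836359. GENCODE release 29 places all 3 hairpins in an exon of the noncoding gene AC020916.1. The chromosome 9 cluster lies on the plus strand and covers 881 bases. There MIR23B (chr9:95085208-95085304) and MIR27B (chr9:95085445-95085541) are in an intron of the protein-coding gene C9orf3, and MIR24-1 (chr9:95086021-95086088) overlaps an annotated exon of it. MIR3074 is annotated on the minus strand over MIR24-1.

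**Figure D1:**
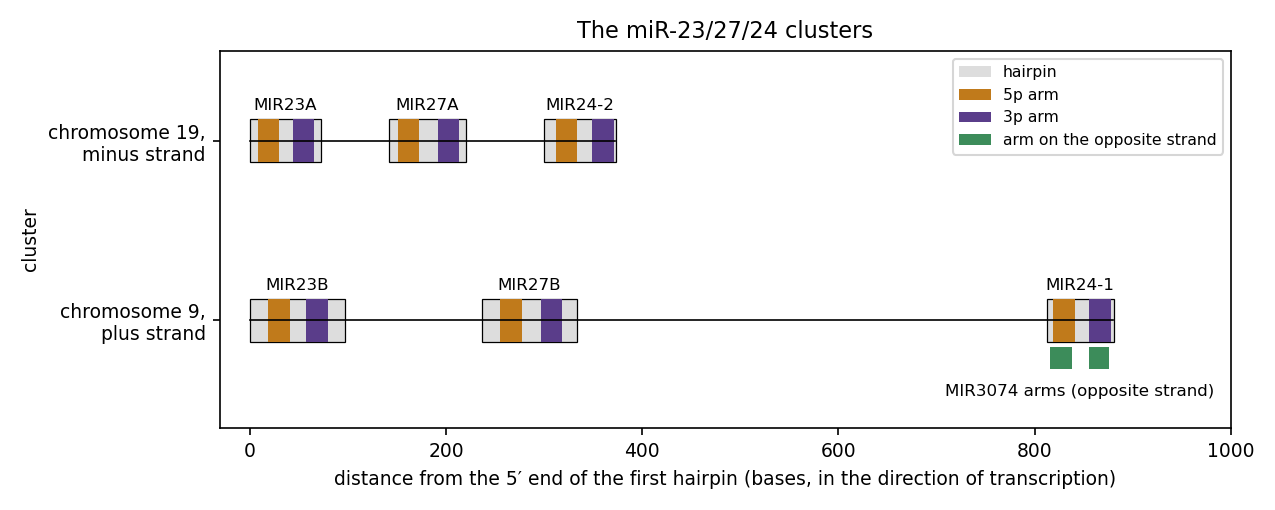
Positions of the hairpins in the clusters, drawn to scale as the distance in bases from the 5′ end of the first hairpin in the direction of transcription. Boxes are hairpins with their 5p and 3p arms coloured, and the green boxes under MIR24-1 are the arms of MIR3074 on the opposite strand. The order of miR-23, miR-27 and miR-24 is the same in both clusters, and the chromosome 9 cluster is longer, 881 against 373 bases.

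The libraries differed widely in depth. CD44v6-positive samples 1 and 2 held 919802 and 154481 reads, and CD44v6-negative samples 1 and 2 held 7880631 and 4592278, a 51.0-fold span. The 10 entries together took 0.951% and 1.01% of the reads in CD44v6-positive cells, against 1.28% and 1.83% in CD44v6-negative cells. Levels are given in CPM, reads per 1000000 reads after scaling by the trimmed mean of M values (TMM). The limit that a count of 0 allows, 3 reads, was 3.26 and 19.4 CPM in the CD44v6-positive samples and 0.381 and 0.653 CPM in the CD44v6-negative samples before that scaling. Of the microRNAs fixed as markers, the epithelial miR-200 family with miR-141 summed to 16625 and 9031 CPM in CD44v6-positive cells, against 31773 and 19256 CPM in CD44v6-negative cells, and all 5 were detected in every sample. CD44v6-positive sample 2, the shallowest, stood apart in some markers of other tissues. The liver marker miR-122-5p was at 48.6 and 610 CPM in CD44v6-positive samples 1 and 2, against 4.59 and 3.99 CPM in the CD44v6-negative samples. The 4 blood markers summed to 33.5 and 313 CPM in CD44v6-positive cells, against 46.7 and 31.2 CPM in CD44v6-negative cells. Most of the sum in CD44v6-positive sample 2 was miR-451a, at 15.1 and 281 CPM in CD44v6-positive cells, against 24.9 and 7.62 CPM in CD44v6-negative cells. The 6 markers of muscle and stroma summed to 856 and 5066 CPM in CD44v6-positive cells, against 1273 and 864 CPM in CD44v6-negative cells. Of these miR-143-3p had 746 and 4972 CPM in CD44v6-positive cells, against 1084 and 665 CPM in CD44v6-negative cells, miR-145-5p was lowest in CD44v6-positive sample 2, and miR-206 was at 0 in all 4 samples. The 3 intestinal markers summed to 1188 and 5045 CPM in CD44v6-positive cells, against 2065 and 1430 CPM in CD44v6-negative cells. The neural and endothelial markers were not raised there: the 2 neural ones summed to 837 and 438 CPM in CD44v6-positive cells, against 1980 and 946 CPM in CD44v6-negative cells, with miR-124-3p near 0, and the endothelial miR-126-3p stood at 173 and 141 CPM in CD44v6-positive cells, against 336 and 267 CPM in CD44v6-negative cells. The part of depth and of these markers in the results was not tested, so the results are also given without CD44v6-positive sample 2 where they rest on it.

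After TMM scaling, each of the 5 guide strands was less abundant in either CD44v6-positive sample than in either CD44v6-negative sample. Per total reads this did not hold for miR-27b-3p, which was higher in CD44v6-positive sample 2 than in CD44v6-negative sample 1. The guide strands were lower by 0.66 to 1.78 on the log2 scale, and none passed the test. The test was edgeR's quasi-likelihood test with Benjamini-Hochberg adjustment over 570 tested entries, at an adjusted p under 0.05. Of the 10 entries, 9 passed the filter on low counts, all but miR-23b-5p. In all, 0.0% of the tested entries were called by edgeR, 0 of 570, so a lack of calls among the miR-23/27/24 entries says nothing particular to them. At an unadjusted p under 0.05 there were 174 entries (30.5%), and 3 of the 9 tested miR-23/27/24 entries were among them, all lower, where 17.5% of all tested entries were lower at that p. DESeq2 called 52 entries (8.81% of those with an adjusted p) and limma-voom 4 (0.702%), and neither called a miR-23/27/24 entry. The median log2 fold change of all tested entries was -0.31, against 0.036 with upper quartile scaling and 0.0054 with total counts, so values relative to that median are also given.

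From the chromosome 19 cluster, miR-23a-3p stood at 1246 and 683 CPM in CD44v6-positive cells, against 3261 and 1379 CPM in CD44v6-negative cells. The groups did not overlap, but the CD44v6-negative samples differed 2.37-fold from each other, and CD44v6-negative sample 2 lay close to CD44v6-positive sample 1. The log2 fold change was -1.26 ± 0.61 (SE, n = 2 each, edgeR adjusted p = 0.216), or -0.96 relative to the median of all entries. Without CD44v6-negative sample 1 it was -0.44, the smallest among the values with a sample left out. miR-27a-3p, from the neighbouring hairpin, stood at 1750 and 1079 CPM in CD44v6-positive cells, against 4748 and 3073.9 CPM in CD44v6-negative cells. Here the groups were well apart, with the lower CD44v6-negative sample above the higher CD44v6-positive one. Its log2 fold change was -1.46 ± 0.50 (SE, edgeR adjusted p = 0.130), or -1.16 relative to the median, and between -1.97 and -0.95 with any 1 sample left out. In every sample miR-27a-3p had more reads than miR-23a-3p, with read ratios of 1.40 and 1.58 in CD44v6-positive cells and 1.46 and 2.23 in CD44v6-negative cells.

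From the chromosome 9 cluster, miR-27b-3p was the most abundant of the 10 entries in every sample, at 5273 and 5686 CPM in CD44v6-positive cells, against 8129 and 9208 CPM in CD44v6-negative cells. On this TMM scale both samples of each group lay close together, and the groups did not overlap. Per total reads they did overlap. CD44v6-positive sample 2 held 1091 of 154481 reads, a higher share than the 42489 of 7880631 in CD44v6-negative sample 1. The log2 fold change was -0.66 ± 0.41 (SE, edgeR adjusted p = 0.311), or -0.36 relative to the median, and it was -0.23 after a correction for GC content. It ranked 37 and 27 among all entries in the CD44v6-positive libraries, against 39 and 25 in the CD44v6-negative libraries. Its neighbour miR-23b-3p stood far lower, at 245 and 208 CPM in CD44v6-positive cells, against 531 and 346 CPM in CD44v6-negative cells. The groups did not overlap, and the log2 fold change was -0.95 ± 0.52 (SE, edgeR adjusted p = 0.257), or -0.64 relative to the median. The read ratio of miR-27b-3p to miR-23b-3p was 21.5 and 27.3 in CD44v6-positive cells, against 15.3 and 26.6 in CD44v6-negative cells. Although both hairpins sit within 1 cluster, their guide strands were thus counted at very different levels in each library.

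The guide strand that both clusters encode, miR-24-3p, stood at 644 and 224 CPM in CD44v6-positive cells, against 2107 and 901 CPM in CD44v6-negative cells. The groups did not overlap, and the samples within each differed by 2.87-fold among CD44v6-positive cells and 2.34-fold among CD44v6-negative cells. With -1.78 ± 0.71 (SE, edgeR adjusted p = 0.154) it had the lowest log2 fold change of the 5 guide strands, -1.47 relative to the median. CD44v6-positive sample 2 held only 43 of its reads. Without that sample the log2 fold change was -1.03, without CD44v6-negative sample 1 it was -0.97, and without CD44v6-positive sample 1 it was -2.86. Each of these fits leaves a lone sample in 1 group, assumed to vary like the others. In the last one that sample is CD44v6-positive sample 2, with its 43 reads. Over the unpaired alternatives with all 4 samples, the edgeR adjusted p of miR-24-3p ran from 0.0741 with no filter to 0.248 with upper quartile scaling. Without CD44v6-positive sample 2 the other guide strands had log2 fold changes of -0.71 for miR-23a-3p, -0.95 for miR-27a-3p, -0.63 for miR-23b-3p and -0.48 for miR-27b-3p, all still below 0.

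**Figure D2:**
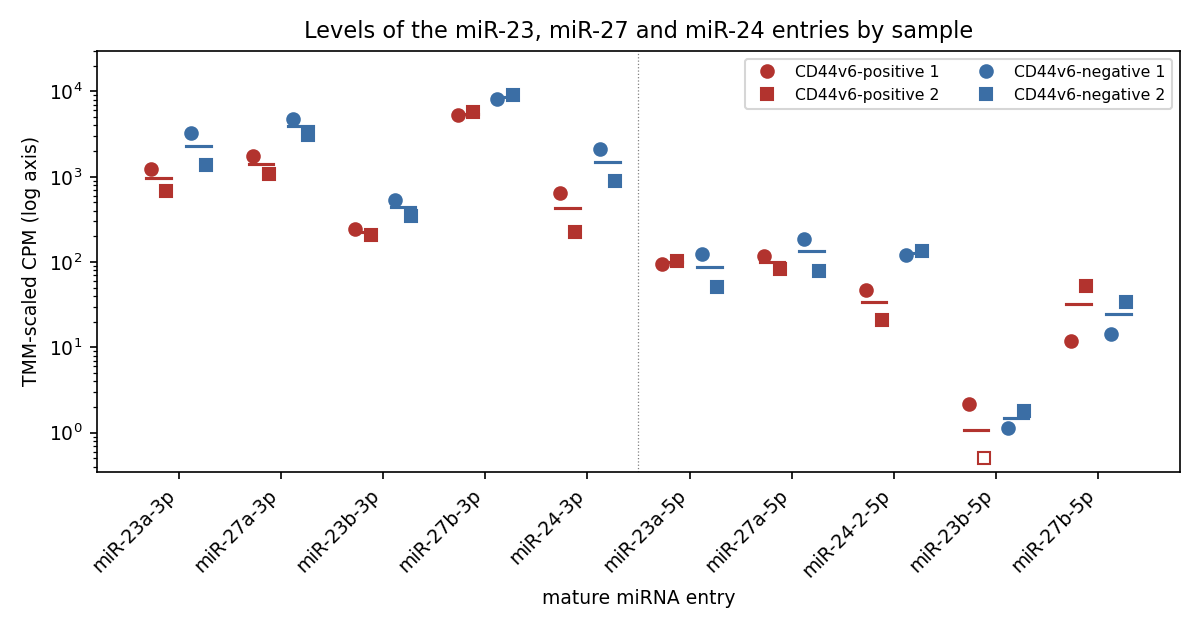
TMM-scaled CPM on a log axis for each of the 10 entries, with CD44v6-positive samples in red left of CD44v6-negative samples in blue, circles for sample 1, squares for sample 2 and short lines for the mean of 2 samples. The open square is a count of 0, drawn at the foot of the axis. The 3p arms, left of the dotted line, were lower in both CD44v6-positive samples, and miR-27b-3p stood highest in each sample.

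The order of the guide strands by level was the same in all 4 samples, with miR-27b-3p first, then miR-27a-3p, miR-23a-3p, miR-24-3p and miR-23b-3p. All are 21 to 23 bases long, so CPM needs no scaling for length, but adapter ligation is known to favour some ends, and levels of different microRNAs compare reads. In CD44v6-positive cells the ranges of miR-27a-3p and miR-23a-3p overlapped, as did those of miR-24-3p and miR-23b-3p, which stood at 224 and 208 CPM in CD44v6-positive sample 2. In CD44v6-negative cells miR-27a-3p overlapped with miR-23a-3p, and miR-23a-3p with miR-24-3p. The place of miR-27b-3p above the others was the one step wider than the spread in both groups.

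The 5p arms did not share 1 pattern. miR-24-2-5p, which comes from the chromosome 19 hairpin, stood at 47.5 and 20.8 CPM in CD44v6-positive cells, against 122 and 135 CPM in CD44v6-negative cells. Its groups did not overlap, and its log2 fold change was -1.82 ± 0.63 (SE, edgeR adjusted p = 0.130), or -1.52 relative to the median, though it rested on 44 and 4 reads in the CD44v6-positive samples and was -1.20 without CD44v6-positive sample 2. miR-23a-5p stood at 96.0 and 104 CPM in CD44v6-positive cells, against 125 and 51.5 CPM in CD44v6-negative cells. The groups overlapped, with CD44v6-negative samples on either side of the CD44v6-positive ones, and the log2 fold change was 0.18 ± 0.64 (SE, edgeR adjusted p = 0.873). Likewise miR-27a-5p overlapped between groups, at 118 and 83.4 CPM in CD44v6-positive cells, against 189 and 78.1 CPM in CD44v6-negative cells. It had a log2 fold change of -0.39 ± 0.64 (SE, edgeR adjusted p = 0.702). The rare miR-27b-5p stood at 11.9 and 52.1 CPM in CD44v6-positive cells, against 14.3 and 34.4 CPM in CD44v6-negative cells, and its log2 fold change of 0.21 ± 0.92 (SE, edgeR adjusted p = 0.894) had no stable sign. Sign changes of miR-23a-5p, miR-27a-5p and miR-27b-5p with other settings are listed in the closing section. The entry left out by the filter, miR-23b-5p, had 2 and 0 reads in CD44v6-positive cells, against 6 and 10 reads in CD44v6-negative cells, and no difference was detectable at this depth.

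**Figure D3:**
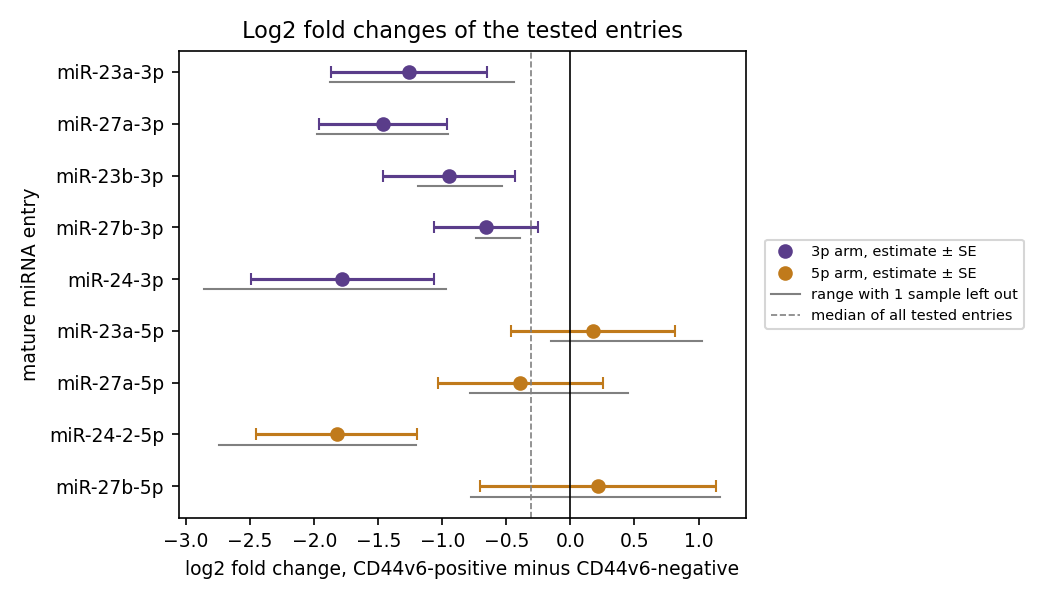
Log2 fold changes, CD44v6-positive minus CD44v6-negative, of the 9 tested entries, with points and bars for the estimate ± SE, grey lines for the range with any 1 sample left out, and a dashed line for the median of all 570 tested entries at -0.31. The 3p arms lie below that median, from -0.66 to -1.78, all but miR-27b-3p by more than their SE. Among the 5p arms miR-24-2-5p lies below it by more than its SE and miR-27a-5p by less.

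Over the 9 tested entries the median log2 fold change was -0.95, against -0.31 over all tested entries, with 7 values below 0 and 2 above. Of all 570 tested entries 316 were below 0 and 254 above. The 5 guide strands had a median of -1.26 and the 4 tested 5p arms one of -0.11. In TMM-scaled CPM the groups did not overlap for 6 of the 9 entries, all lower in CD44v6-positive cells. On that scale 34.6% of all tested entries were lower without overlap and 24.9% higher. Per total reads the groups overlapped for miR-27b-3p, 1 of the 6. The median of the 9 was -0.60 with total count scaling, -0.52 after the GC correction and -0.53 without CD44v6-negative sample 1, and the median relative to all entries was -0.61, -0.57 and -0.41 in these. With no filter on low counts the median of all entries was -1.55 and that of the miR-23/27/24 entries -1.22, so that the relative value turned to 0.33. The entries were chosen with earlier results of these data known, share hairpins and are nearly identical in pairs, so the counts describe them and are not independent.

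How the reads were divided between paralogues could be read within a library, where the scaling between libraries cancels. miR-27a-3p made up 24.9% (exact Clopper-Pearson 95% interval 23.9 to 26.0) and 15.9% (14.0 to 18.1) of the miR-27a-3p and miR-27b-3p reads in CD44v6-positive samples 1 and 2, against 36.9% (36.5 to 37.2) and 25.0% (24.7 to 25.4) in CD44v6-negative samples 1 and 2. Intervals cover counting error only, since reads copied by PCR are not independent molecules. Both CD44v6-positive shares were below both CD44v6-negative ones, but those of CD44v6-positive sample 1 and CD44v6-negative sample 2 had overlapping intervals, so the groups were apart by less than the counting error. The difference was -10.5 percentage points (20.4 ± 6.34% in CD44v6-positive cells, 30.9 ± 8.37% in CD44v6-negative cells, SD, n = 2 each), with an exact two-sided permutation p of 0.333, the smallest that 2 samples against 2 allow. With 1 sample left out it lay between -16.4 and -4.59 points. Without CD44v6-negative sample 1 or CD44v6-positive sample 2 it shrank to -4.59 and -6.03 points. miR-23a-3p, the same cluster's share of the miR-23 guide strands, made up 83.6% and 76.6% in CD44v6-positive cells, against 86.0% and 79.96% in CD44v6-negative cells. These groups overlapped, and without CD44v6-positive sample 2 the difference of -2.88 points turned to 0.60 points (exact permutation p with all 4 samples = 0.667). Thus the chromosome 19 copy gave most of the miR-23 guide reads and the chromosome 9 copy most of the miR-27 guide reads in all 4 samples.

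A test of unequal log2 fold changes within seed families, edgeR's diffSpliceDGE with Benjamini-Hochberg adjustment, called 3 of 122 names (2.46%) and neither pair of guide strands. The log2 fold change of miR-27a-3p minus that of miR-27b-3p was -0.80, with a family p of 0.209 and an adjusted p of 0.492 from edgeR. For miR-23a-3p minus miR-23b-3p it was -0.31, with an edgeR adjusted p of 0.829 for the family. Of all reads that belong to 1 cluster, chromosome 19 arms took 37.1% and 24.9% in CD44v6-positive cells, against 49.3% and 33.0% in CD44v6-negative cells. These shares overlapped between the groups (exact permutation p = 0.667). Among the 1799 entries with a RefSeq sequence, no other shared a seed with the guide strands apart from miR-23c, from the X chromosome, which had no read in CD44v6-positive cells and 4 and 3 reads in CD44v6-negative cells.

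The share of the 5p arm was higher in CD44v6-positive cells for both chromosome 19 hairpins whose arms can be assigned, without overlap. For miR-23a the 5p arm took 7.15% (exact 95% interval 5.78 to 8.73) and 13.2% (8.28 to 19.7) of the reads in CD44v6-positive samples 1 and 2, against 3.70% (3.43 to 3.99) and 3.60% (3.20 to 4.04) in CD44v6-negative samples. For miR-27a it took 6.30% (5.20 to 7.55) and 7.17% (4.16 to 11.4) in CD44v6-positive samples, against 3.82% (3.59 to 4.06) and 2.48% (2.25 to 2.72) in CD44v6-negative samples. These intervals did not overlap between the groups. Each difference, 6.55 points for miR-23a and 3.59 points for miR-27a, had an exact two-sided permutation p of 0.333, the smallest possible here. Without CD44v6-positive sample 2 the differences were 3.504 points for miR-23a and 3.15 points for miR-27a. As background, the share of the less abundant arm was higher without overlap for 32.9% of 143 hairpins and lower for 30.1%. In the test over hairpins, which called 2 of 150 (1.33%), neither was called, with edgeR adjusted p of 0.267 for miR-23a and 0.328 for miR-27a. The log2 fold change of the 5p arm exceeded that of the 3p arm by 1.44 for miR-23a, 1.07 for miR-27a and 0.88 for miR-27b. For miR-27b, where the 5p arm took 0.225% and 0.908% in CD44v6-positive cells, against 0.176% and 0.373% in CD44v6-negative cells, the groups overlapped (edgeR adjusted p = 0.482). Both miR-24 5p arms together took 7.01% and 10.4% of the miR-24 reads in CD44v6-positive cells, against 5.74% and 13.4% in CD44v6-negative cells, with overlap. The test over hairpins, which took the 3 miR-24 entries apart and did not sum the 5p arms, gave an edgeR adjusted p of 0.959. The 5p reads of miR-24 came mainly from the chromosome 19 hairpin: miR-24-2-5p had 44 and 4 reads and miR-24-1-5p had 1 and 1 in CD44v6-positive cells, against 637 and 743 for miR-24-2-5p and 34 and 24 for miR-24-1-5p in CD44v6-negative cells.

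**Figure D4:**
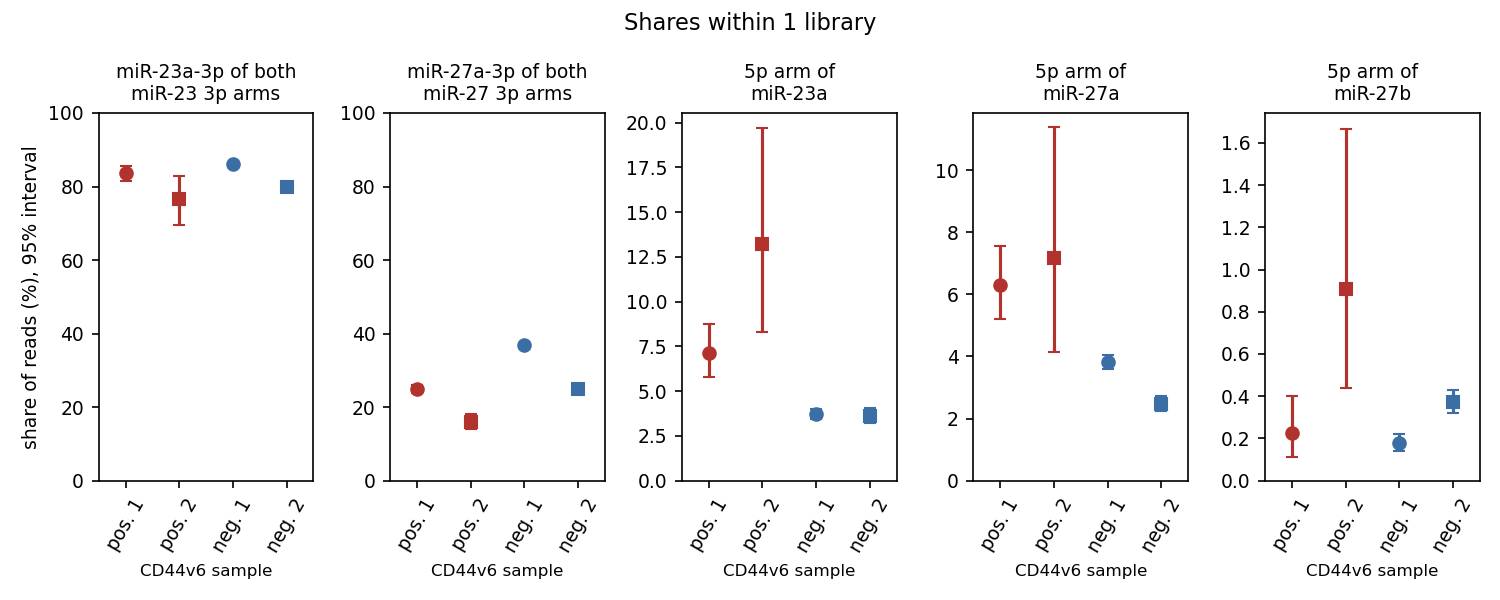
Shares of reads within 1 library, in percent with exact 95% intervals, for CD44v6-positive samples (red, left) and CD44v6-negative samples (blue, right), each panel with its own axis starting at 0. The left panels give the chromosome 19 copy's share of the miR-23 and the miR-27 guide strands, and the right panels the 5p arm's share of 3 hairpins. The 5p shares of miR-23a and miR-27a lie higher in both CD44v6-positive samples, and the share of miR-27a-3p lies lower, by a margin within counting error.

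miR-3074-5p needs to be read beside miR-24-3p, since its sequence lies on the opposite strand of MIR24-1 over 20 shared bases.
miR-3074-5p: gUUCCUGCugaacugagccag
It stood at 195 and 109 CPM in CD44v6-positive cells, against 808 and 308 CPM in CD44v6-negative cells, with no overlap and a log2 fold change of -1.85 ± 0.68 (SE, edgeR adjusted p = 0.135). It was -1.33 without CD44v6-positive sample 2 and -0.93 without CD44v6-negative sample 1. Of the reads of miR-24-3p and miR-3074-5p together it took 23.3% and 32.8% in CD44v6-positive cells, against 27.7% and 25.4% in CD44v6-negative cells. The shares overlapped between groups (exact permutation p = 1), and whether the authors' counting used strand is not given in the sources used here, so these counts may not be separate. Summed, a choice made after seeing the data, miR-24-3p with miR-3074-5p had a log2 fold change of -1.82 ± 0.69 (SE, edgeR adjusted p = 0.148).

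A list of 8 other entries on these chromosomes held miR-24-1-5p and both arms of miR-3074 from the chromosome 9 cluster, miR-2278 from a hairpin 275 kb away from it, and both arms of miR-181c and miR-181d from hairpins 38.0 and 38.2 kb away from the chromosome 19 cluster. Of the 8, 5 were tested, all with negative log2 fold changes, as 316 of all 570 tested entries had. Their median was -1.51, and 4 of them were lower without overlap, where 34.6% of all tested entries were. None was called. miR-181c-5p, from a hairpin on the other strand of chromosome 19 (MIR181C, chr19:13874699-13874808, in an intron of NANOS3), stood at 111 and 57.3 CPM in CD44v6-positive cells, against 490 and 209 CPM in CD44v6-negative cells. Its log2 fold change was -2.02 ± 0.68 (SE, edgeR adjusted p = 0.128), and it was lower in 2 of 2 CD44v6-positive samples. Its 3p arm miR-181c-3p stood at 30.2 and 10.4 CPM in CD44v6-positive cells, against 64.7 and 63.8 CPM in CD44v6-negative cells, and its log2 fold change was -1.51. Without CD44v6-positive sample 2 these arms had -1.46 and -0.86. miR-181d-5p had a log2 fold change of -0.40, and its sign depended on the setting. It was among the 4 without overlap by only 0.54 CPM after TMM scaling, and its groups overlapped per total reads. The 21 microRNAs listed as reported to be repressed by MYC, apart from the miR-23/27/24 entries, were all tested. Of their log2 fold changes 17 were below 0 and 4 above, against 316 and 254 of all 570 tested entries. The median was -0.49, and 11 were lower and 2 higher without overlap, where 34.6% and 24.9% of all tested entries were. edgeR called 0 of the 21, with 5 at an unadjusted p under 0.05, all lower, where 17.5% of all tested entries were lower at that p. DESeq2 called 3, where it called 8.81% of all entries with an adjusted p.

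The entries nearest to each guide strand over the 4 samples were found by the root mean square distance of log2 CPM after centring, among 183 entries with a mean of at least 100 CPM. This measure is a description of 4 points that share their libraries. miR-23a-3p lay nearest to miR-9-5p (distance 0.068), miR-103b (0.110) and miR-103a-3p (0.124), and miR-9-5p is on the list of neural markers. miR-27a-3p lay nearest to miR-126-5p (0.124), miR-183-5p (0.134) and miR-96-5p (0.152). The nearest to miR-24-3p were miR-301a-3p (0.066), miR-301b-3p (0.128) and miR-17-5p (0.213). For miR-23b-3p they were miR-30e-3p (0.070), miR-671-5p (0.092) and miR-126-3p (0.104), and for miR-27b-3p miR-196b-5p (0.079), miR-769-5p (0.140) and miR-501-3p (0.142). Among the 9 tested entries themselves the closest pair was miR-23a-3p with miR-27a-3p, at 0.264, which are neighbours on chromosome 19. Next came miR-23b-3p with miR-27a-3p, from different chromosomes, at 0.322. The chromosome 9 neighbours miR-23b-3p and miR-27b-3p followed at 0.334. The miR-27 paralogues lay 0.573 apart and the miR-23 paralogues 0.344. The 183 candidates left out the miR-23/27/24 entries, so none of these could be listed among the nearest. The smallest distance among the 9 tested entries, 0.264, was above the largest one listed for a nearest entry, 0.213. These are not like for like, since the listed entries are the closest of 183 and the tested entries are only 9. The median distance of the 183 candidates ran from 0.705 for miR-23b-3p to 0.965 for miR-24-3p, and was 0.796 for miR-23a-3p and 0.732 for miR-27a-3p.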

How the data were processed

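Small RNA libraries of sorted HCT116 spheroid cells gave raw counts per mature miRNA, which the authors deposited in a single table. The build was GRCh38 and the tools included DESeq2, Bowtie 0.12.9, cutadapt 1.10 and CASAVA 1.8.2, per the submitters' processing notes. Settings and the handling of multiply mapped reads, mismatches and strand were not given in the sources used here. The authors' normalized table was not used.

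The counts were fitted as a whole with edgeR 4.0.16 in R 4.3.3 (TMM, filterByExpr with a minimum count of 10 and total of 15, glmQLFTest, Benjamini-Hochberg over 570 entries). Standard errors were derived as |log2 fold change| over the square root of F. Unequal changes of arms or of names with 1 seed were tested with diffSpliceDGE. Shares within a library have exact Clopper-Pearson 95% intervals (scipy 1.17.1) and exact permutation tests. Scripts were tested on simulated data. Alternatives were other scalings and filters, DESeq2 1.42.0, limma-voom (limma 3.58.1), a replicate block, summed paralogues, a GC correction and leaving out each sample. Sequences matched RefSeq by name for 1799 of 2026 entries and for all 10 miR-23/27/24 entries.

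The entries and lists were chosen with earlier results of these data known. Named were all 10 entries, the 3 nearest entries of each guide strand and seed relatives. The plan set up to 4 abundant entries of each list. In the event all 8 other entries on these chromosomes were named, with values for some, and none of the MYC list.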

Additional observations from a re-analysis of the deposited data

How the results depend on the processing

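The precision was limited by 2 samples a group and by depth, above all in CD44v6-positive sample 2 with 154481 reads. Against 0 entries called, the count was 48 with total count scaling, 77 with no filter, 52 with DESeq2, 4 with limma-voom, 2 with paralogues summed, 1 with the GC correction and 26 to 55 with 1 sample left out (55 and 27 without CD44v6-positive sample 1 and 2, 26 and 43 without CD44v6-negative sample 1 and 2). It stayed 0 with median-of-ratios and upper quartile scaling and with a 10 CPM filter. The cause was not tested. Hairpins called for arm usage numbered 2, against 8 with the 10 CPM filter and 0 to 7 with 1 sample left out. Names called for seed family usage numbered 3, against 0 to 1 with 1 sample left out. The median log2 fold change, -0.95, was -0.60 with total count scaling, -0.52 with the GC correction and -1.19 to -0.53 with 1 sample left out.

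Of 127 values of the 9 tested entries under alternatives, 110 kept direction and side of the threshold, 5 passed it and 12 changed sign. Those that passed it came from the replicate block, except miR-24-3p without CD44v6-positive sample 1. That fit, at -2.86, rests on the shallowest library as the lone CD44v6-positive sample. Sign changes were for 5p arms. miR-23a-5p was -0.28 with no filter, -0.038 with DESeq2, -0.25 with the GC correction and -0.15 to 1.03 with 1 sample left out (-0.15 without CD44v6-negative sample 2). miR-27a-5p was 0.026 with total count scaling, and -0.79 to 0.45 with 1 sample left out (0.0082 and 0.45 without CD44v6-positive sample 2 and CD44v6-negative sample 1). miR-27b-5p was -0.23 with no filter, -0.14 with limma-voom, -0.24 with paralogues summed, and -0.77 to 1.17 with 1 sample left out (-0.77 and -0.21 without CD44v6-positive sample 2 and CD44v6-negative sample 1). Summed with their paralogues, miR-181c-5p and miR-181d-5p share 1 value, 0.45, and miR-181d-5p was 0.39 with the GC correction and -1.01 to 0.099 with 1 sample left out (0.099 without CD44v6-positive sample 2). miR-181c-5p had an edgeR adjusted p of 0.0474 with no filter, and 0.000196 to 0.648 over its alternatives.

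The replicate number as a block gave 228 entries, 40 hairpins and 7 names, and edgeR adjusted p of 0.0016 for miR-23a-3p, 3.6e-05 for miR-27a-3p, 4e-06 for miR-24-3p and 0.0068 for miR-24-2-5p, whose highest values over the other alternatives were 0.777, 0.588, 0.502 and 0.357 in that order. Same-numbered samples deviated together with r = 0.375 over 570 entries, but there are only 2 pairs and no label gives the numbers a shared culture or day.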

Other observations

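Other annotated pairs of mature miRNAs also lie on opposite strands of the same bases, as miR-24-3p and miR-3074-5p do. The table holds 40 such pairs with at least 15 shared bases, of which 16 had 100 or more reads over both names and all 4 samples. In 6 of the 16 the less abundant name took over 20% of the pair's reads, with 48.6% for miR-103b beside miR-103a-3p and 26.9% for miR-3074-5p beside miR-24-3p. In 5 of the 16 it took under 1%, among them miR-3184-5p beside miR-423-3p with 8 reads beside 42922. miR-103b and miR-103a-3p were also among the nearest entries to miR-23a-3p.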
